A study of Homo sapiens with 83 samples.

Results

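The genes described are 9 that make, regenerate or use glutathione and thioredoxin, or that control those genes: NFE2L2, KEAP1, GCLC, GCLM, GSR, NQO1, TXNRD1, SRXN1 and GPX4. They were taken from the deposited table by gene symbol, and all 9 were found once each among its 60237 genes. RNA sequencing had been carried out on 83 libraries from the human neuroblastoma lines SHEP and SKNAS, which carry N-MYC-ER, N-MYC joined to an estrogen receptor domain so that it acts only when 4-hydroxytamoxifen (4OHT) is present. All 4 groups carried N-MYC-ER and received dexamethasone to set their clocks. MYC-ON cells had 4OHT from before the dexamethasone and MYC-OFF cells had ethanol in its place. N-MYC activity and any other action of 4OHT therefore cannot be told apart in these groups. RNA was collected every 4 h from circadian time 24 h (CT24) to CT76. For SHEP there were 2 time series of each condition, which gave 28 MYC-OFF and 28 MYC-ON libraries. For SKNAS there was 1 of each, which gave 14 MYC-OFF libraries and 13 MYC-ON libraries, the latter ending at CT72.

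NFE2L2 encodes NRF2, a transcription factor for antioxidant genes, and KEAP1 holds NRF2 for degradation until oxidants or electrophiles modify it. Freed NRF2 pairs with small MAF proteins at antioxidant response elements in the DNA. Its best known targets include both subunits of glutamate-cysteine ligase (GCLC and GCLM), the quinone reductase NQO1, thioredoxin reductase TXNRD1 and sulfiredoxin SRXN1. MYC with its partner MAX binds E-boxes and drives growth and biosynthesis, which draw on the same cysteine, glutamate and NADPH as glutathione.

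On GRCh38, NFE2L2 lies at chr2:177218667-177392756, KEAP1 at chr19:10486125-10503558, GCLC at chr6:53497341-53616970, GCLM at chr1:93885199-93909456 and NQO1 at chr16:69706996-69726668, all on the minus strand. TXNRD1 lies at chr12:104215779-104350307 and GPX4 at chr19:1103982-1106791 on the plus strand, and SRXN1 at chr20:646615-653200 on the minus strand. Annotated genes overlap several of them, among them HNRNPA3 on the strand opposite NFE2L2, GCLC-AS1 opposite GCLC and EID3 on the strand of TXNRD1. Whether quantification used strand is not given in the sources used here, so reads shared with these neighbours are a source of uncertainty. A read-through gene that overlaps 6575 bases of SRXN1 on its strand was at or under 0.539 TPM in every library.

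RefSeq promoter sequences (250 bases before to 50 after a gene start, GRCh38.p14) were at hand for 8 of the 9 genes, in 13 entries. They were searched on both strands for the core of the antioxidant response element, TGACNNNGC, and for the E-box CACGTG, motifs that do not overlap each other in any of these entries. The first was found for KEAP1, GCLM and TXNRD1 (3 of 8 genes), and in 13.3% of 35116 promoters of the same length. The second was found for 0 of 8 genes and in 7.26% of all promoters. A gene with several entries has more chances of a match than a single promoter, so the shares of genes and of promoters are not alike. The 6 matches are shown, each in a window of 29 bases read along the gene's strand, with the motif or its reverse complement in capitals, because a GCLM and a KEAP1 match hold the same 9 letters, while averaged over time GCLM was called in SHEP and KEAP1 was not.
GCLM, chr1:93909446-93909474, minus strand: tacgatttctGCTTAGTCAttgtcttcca
KEAP1, downstream start, chr19:10502784-10502812, minus strand: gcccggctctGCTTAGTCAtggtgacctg
KEAP1, downstream start, chr19:10502807-10502835, minus strand: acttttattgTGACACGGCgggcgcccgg
TXNRD1, downstream start, chr12:104286920-104286948, plus strand: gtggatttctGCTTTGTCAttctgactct
TXNRD1, upstream start, chr12:104215670-104215698, plus strand: acacgggctaTGACTTCGCtgttgtcacc
TXNRD1, upstream start, chr12:104215761-104215789, plus strand: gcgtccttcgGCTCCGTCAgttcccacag
A match describes these letters alone, and the absence of one says nothing of binding elsewhere.

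Values are TPM, a read share corrected for gene length, in which each library has the same total, so the depth of each library cannot be read from the values and no counting error is given. The 56 SHEP libraries were close to each other, with a median log2(TPM + 1) over tested genes of 3.93 to 4.17. In SKNAS this library median ran from 2.97 to 4.38 in MYC-OFF and from 2.76 to 4.25 in MYC-ON. Only 3 of 13 SKNAS MYC-ON libraries reached 3.8, against 10 of 14 in MYC-OFF. The transcript of MYCN, the gene from which the fusion derives, was present in every library, which in SHEP meant 406 to 688 TPM without 4OHT and 255 to 515 with it. In SKNAS it was at 29.1 to 987 TPM in MYC-OFF and 13.1 to 1046 in MYC-ON. Of 9 markers of adrenergic neuroblastoma 3 averaged at least 1 TPM in SHEP and 6 in SKNAS, with TH and DBH among those under 1 TPM in both. Of 9 mesenchymal markers 9 did so in SHEP and 8 in SKNAS. Of 7 markers of blood, endothelium, epithelium and liver, PTPRC alone averaged over 1 TPM, in SKNAS only, at 13.03 to 132 TPM in MYC-OFF and 3.13 to 59.7 in MYC-ON, and at most 0.0118 in SHEP. Its part in the SKNAS results was not tested.

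MYC-ON against MYC-OFF in SHEP asks how activated N-MYC moved each gene's level. In SHEP, 7 of the 9 genes were higher in MYC-ON, 1 was lower and KEAP1 was not called. Genes were called with limma on log2(TPM + 1), time point as a factor, where the Benjamini-Hochberg adjusted p over all 14362 genes tested was no more than 0.05 and the difference 0.15 or larger. Of all genes tested, 33% were called higher and 38.9% lower. The median difference was 0.28 for the 9 genes and -0.04 for all genes. Since bulk RNA was measured, fewer cells of a kind and less RNA per cell cannot be told apart. Time points of a series come from one experiment, so the p-values rest on spread between time points more than between experiments.

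Both subunits of glutamate-cysteine ligase, which makes the first and rate-limiting step of glutathione synthesis, were higher in every SHEP MYC-ON library. The catalytic subunit GCLC was at 14.8 to 25.5 TPM in MYC-OFF (median 19.5) and at 33.1 to 48.6 in MYC-ON (median 41.6). The groups did not overlap and MYC-ON was higher in 28 of 28 pairs of the same series and time. The difference was 1.00 ± 0.049 (SE, log2 scale, limma adjusted p = 9.4e-23). The modifier subunit GCLM, which makes the enzyme more efficient, was at 16.1 to 25.9 TPM in MYC-OFF (median 20.7) and at 29.4 to 47.6 in MYC-ON (median 38.1). It too did not overlap, and it rose by 0.82 ± 0.045 (SE, limma adjusted p = 4.03e-21).

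SRXN1, which repairs over-oxidised peroxiredoxins, had the largest rise of the 9 genes in SHEP. Its level was 48.3 to 70.5 TPM in MYC-OFF (median 56.7) and 106 to 152 in MYC-ON (median 122). Every MYC-ON library stood above every MYC-OFF library. The difference was 1.08 ± 0.026 (SE, limma adjusted p = 1.8e-34). GCLC, GCLM and SRXN1 were thus the 3 of 9 genes higher without overlap, which held for 6.11% of all genes tested in SHEP.

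The other reductases rose less. NQO1, which reduces quinones with NADH or NADPH, was at 175 to 302 TPM in MYC-OFF (median 202) and at 232 to 338 in MYC-ON (median 311). The ranges overlapped, but MYC-ON was higher in 28 of 28 pairs, with a difference of 0.53 ± 0.047 (SE, limma adjusted p = 6.64e-14). GSR, which returns oxidised glutathione to its reduced form, was at 63.99 to 86.0 TPM (median 77.5) and at 77.8 to 110 (median 92.6), a difference of 0.28 ± 0.030 (SE, limma adjusted p = 1.68e-11). TXNRD1, which does the same for thioredoxin, was at 413 to 606 TPM (median 524) and at 517 to 681 (median 618), a difference of 0.23 ± 0.033 (SE, limma adjusted p = 2.57e-08). GSR and TXNRD1 were each higher in 26 of 28 pairs. With the mean of each series as 1 replicate the TXNRD1 difference was 0.23 with a limma adjusted p of 0.058.

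GPX4, the selenium enzyme that clears lipid hydroperoxides with glutathione and so guards cells from ferroptosis, went the other way. It was at 395 to 587 TPM in MYC-OFF (median 506) and at 144 to 236 in MYC-ON (median 189). No library of one group reached the other, and MYC-ON was lower in 28 of 28 pairs. It fell by 1.40 on the log2 scale (SE 0.043, limma adjusted p = 1.14e-30), to 0.38 of its MYC-OFF mean. Of all genes tested in SHEP, 6.36% were lower without overlap. In MYC-OFF the levels of GPX4 and TXNRD1 overlapped at the top of the 9 genes, and in MYC-ON the lowest TXNRD1 library stood above every GPX4 library.

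**Figure D1:**
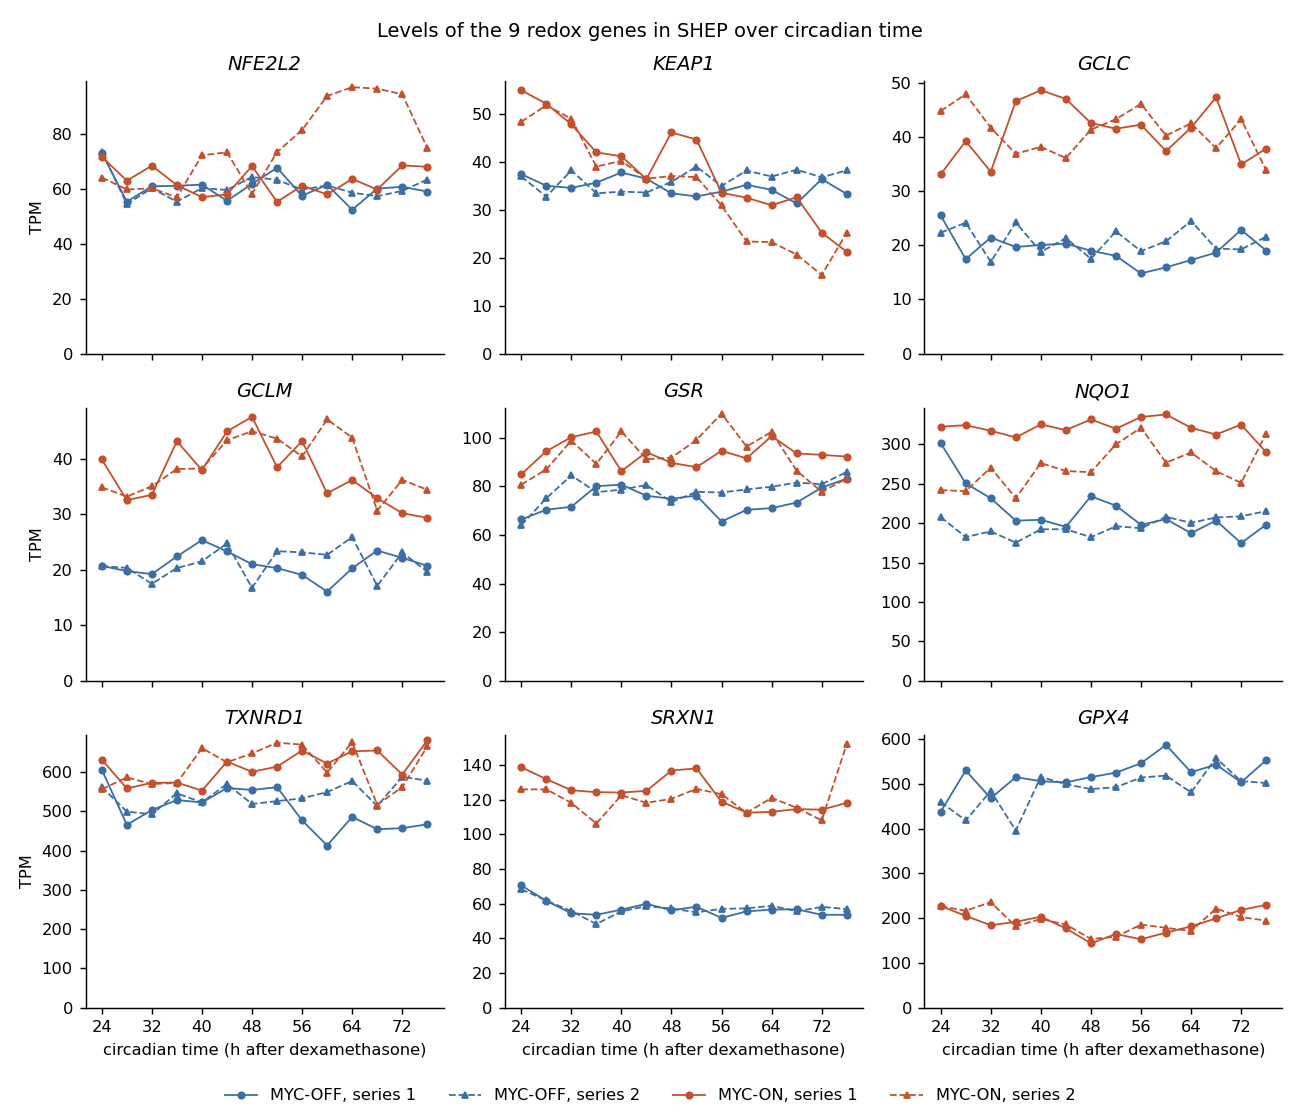
TPM of each of the 9 genes in SHEP (vertical axes from 0) against circadian time in hours, with MYC-OFF in blue, MYC-ON in orange, series 1 as circles and series 2 as triangles. GCLC, GCLM and SRXN1 lie higher and GPX4 lower in MYC-ON at every time, KEAP1 in MYC-ON crosses the MYC-OFF level, and NFE2L2 is highest in series 2 of MYC-ON, at 97.0 TPM.

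The regulators changed with time or with series. NFE2L2 was at 52.4 to 73.6 TPM in MYC-OFF (median 60.2) and at 55.3 to 97.0 in MYC-ON (median 66.1), higher in 20 of 28 pairs. The difference was 0.17 ± 0.052 (SE, limma adjusted p = 0.00308). It rested on series 2, since in series 1 alone it was 0.06 and not called, and with the GC slope of each library as a covariate it was 0.02. KEAP1 was at 31.3 to 39.0 TPM in MYC-OFF (median 35.4) and at 16.4 to 54.9 in MYC-ON (median 36.6). Averaged over time its difference was -0.02 ± 0.074 (SE, limma adjusted p = 0.77), with 15 of 28 pairs higher and 13 lower. With the library median and the GC slope as covariates it was 0.35 and called (limma adjusted p = 0.000249).

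The average joined a higher level early with a lower level late. Through CT48, KEAP1 averaged 44.4 ± 6.32 TPM in MYC-ON and 35.3 ± 1.82 in MYC-OFF (SD, n = 14 libraries each), a difference of 0.31 ± 0.049 (SE, limma adjusted p = 4.86e-06). From CT52 it averaged 28.4 ± 7.52 TPM in MYC-ON and 35.6 ± 2.39 in MYC-OFF, a difference of -0.36 ± 0.096 (SE, limma adjusted p = 0.00183). In series 1 of MYC-ON it went from 54.9 TPM at CT24 through 46.1 at CT48 to 21.2 at CT76. In series 2 it went from 48.3 TPM at CT24 through 37.0 at CT48 to 16.4 at CT72, and stood at 25.2 at CT76. Both series started above every MYC-OFF library and ended below every one.

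Straight lines over time were fitted in each group to ask which levels drifted. In SHEP MYC-ON, KEAP1 fell by 0.58 per 24 h on the log2 scale (SE 0.050, limma adjusted p = 1.75e-10) and NFE2L2 rose by 0.15 (SE 0.053, limma adjusted p = 0.016). These were the 2 of 9 genes with a called trend there, where 19.9% of all genes rose and 37.3% fell. In SHEP MYC-OFF, GPX4 rose by 0.10 per 24 h (SE 0.027, limma adjusted p = 0.00828) and the other 8 genes had no called trend, where 5.71% of all genes rose and 10% fell. Neither series alone kept the GPX4 call.

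The trend of KEAP1 differed between MYC-ON and MYC-OFF by -0.59 per 24 h (SE 0.061, limma adjusted p = 3.83e-11), and that of NFE2L2 by 0.19 (SE 0.066, limma adjusted p = 0.0178). Across all genes tested, 15.7% had a called difference upward and 27% downward. For KEAP1 the difference was -0.45 in series 1 alone and -0.72 in series 2 alone, both called. For NFE2L2 it was 0.04 in series 1 alone, not called, and 0.34 in series 2 alone. Series 2 of MYC-ON also differed from the other SHEP libraries in base composition. Its GC slope, the change of a library's deviation from the gene means per 10 percentage points of transcript GC, was -0.256 to -0.0997 from CT52 to CT72, and -0.0540 to 0.0569 in series 1 of MYC-ON. The longest transcript of KEAP1 has 60.8% GC and that of NFE2L2 40.5%. With the GC slope as a covariate the KEAP1 difference was -0.53 and stayed called, and the NFE2L2 difference was 0.11 and was not.

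None of the 9 genes had a called 24 h rhythm in any of the 4 groups, by a limma F test of a 24 h cosine and sine. Of all genes, 0.0627% were called in the MYC-OFF libraries of SHEP, 0.0139% in its MYC-ON libraries and 0% in either group of SKNAS. With so few calls among all genes, the lack of a call does not show that a gene has no rhythm. The paper fitted rhythms by another method and reported many oscillating genes in each line. An unadjusted p under 0.05 was reached by 1 of the 9 genes in SHEP MYC-OFF (SRXN1, limma p = 0.00866, adjusted p = 0.348). It was reached by 1 in SHEP MYC-ON (GSR, limma p = 0.0172, adjusted p = 0.506) and by 0 in SKNAS. The fitted amplitudes of SRXN1 and GSR there were 0.08 and 0.09 on the log2 scale. Of all 14362 genes tested in SHEP, 1413 reached an unadjusted limma p under 0.05 in MYC-OFF and 1254 in MYC-ON. Of 13886 in SKNAS, 60 and 46 did so.

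In SKNAS the same comparison gave 3 genes higher in MYC-ON (KEAP1, GCLC and SRXN1) and 1 lower (GCLM), with 5 not called. Of 13886 genes tested, 13.7% were called higher and 34.4% lower. The median of all genes was -0.29 and moved to 0.03 when libraries were rescaled by median-of-ratios factors, and the share of calls that were higher moved from 28.5% to 53.6%. Differences of the 9 genes in SKNAS are therefore given on both scales. The MYC-OFF library at CT76 has no MYC-ON partner and adds nothing to these differences where time point is a factor.

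KEAP1 had the clearest difference in SKNAS. It was at 54.5 to 100 TPM in MYC-OFF (median 63.5) and at 107 to 244 in MYC-ON (median 140), with no overlap and MYC-ON higher in 13 of 13 pairs. Of all genes tested in SKNAS, 2.32% were higher and 2.09% lower without overlap. The difference was 1.13 ± 0.127 (SE, limma adjusted p = 4.68e-06), and 1.501 after rescaling. It was 0.84 among the 13 libraries with a median of at least 3.8, fitted without the time point. The KEAP1 difference was called in all alternatives run, the GC slope as a covariate among them. That slope ran from -0.270 to 0.205 in SKNAS MYC-OFF and from -0.321 to 0.230 in MYC-ON.

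GCLC was at 6.16 to 29.7 TPM in SKNAS MYC-OFF (median 18.8) and at 11.5 to 57.6 in MYC-ON (median 26.0), a difference of 0.63 ± 0.223 (SE, limma adjusted p = 0.0309) and 0.98 after rescaling. Its call was lost in 3 of 10 alternatives, which were no filter on low values (0.63), the times up to CT48 (0.40) and those from CT52 (0.89). SRXN1 was at 11.2 to 32.6 TPM (median 29.2) and at 18.6 to 58.3 (median 40.8), a difference of 0.57 ± 0.165 (SE, limma adjusted p = 0.0109) and 0.93 after rescaling, and from CT52 alone 0.77 and not called. The ranges of both overlapped between the groups. MYC-ON was higher in 10 of 13 pairs for GCLC and 11 of 13 for SRXN1.

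GCLM was at 5.00 to 35.8 TPM in SKNAS MYC-OFF (median 20.1) and at 3.37 to 30.0 in MYC-ON (median 10.2), lower in 10 of 13 pairs. It fell by 0.76 (SE 0.274, limma adjusted p = 0.0321), and by 0.42 after rescaling. With the library median as a covariate its difference was -0.07 and not called. The 5 other genes were not called. NFE2L2 differed by -0.45 (limma adjusted p = 0.0605), TXNRD1 by -0.71 (limma adjusted p = 0.103), GSR by 0.10, NQO1 by 0.01 and GPX4 by 0.00. After rescaling GSR differed by 0.47 (limma adjusted p = 2.55e-05) and NQO1 by 0.38 (limma adjusted p = 0.00787), both called, and NFE2L2 by -0.079, TXNRD1 by -0.34 and GPX4 by 0.38, none of them called. GPX4 was at 426 to 1022 TPM in MYC-OFF (median 508) and at 360 to 773 in MYC-ON (median 567). TXNRD1 was at 23.4 to 231 TPM (median 129) and at 21.4 to 242 (median 63.1).

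**Figure D2:**
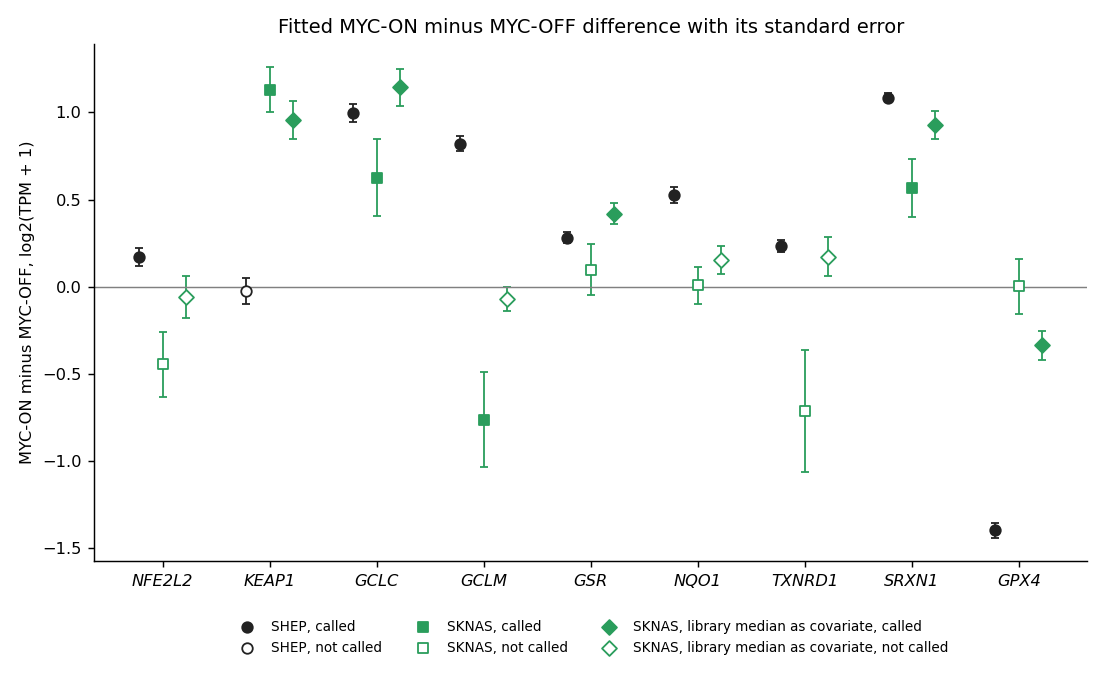
MYC-ON minus MYC-OFF difference of each gene on the log2(TPM + 1) scale (vertical axis), with bars of 1 SE, in SHEP (circles), in SKNAS (squares) and in SKNAS with the library median as a covariate (diamonds). Filled points were called. GPX4 lies at -1.40 in SHEP and 0.00 in SKNAS, and in SKNAS with the covariate it is lower and called. GCLM moves from -0.76 to -0.07 in SKNAS with the covariate.

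Levels of the 9 genes in SKNAS moved with the library median, as a description over 27 libraries that share that median. Pearson's r was 0.98 for GCLM, 0.98 for TXNRD1, 0.93 for NFE2L2, 0.87 for GSR and 0.82 for NQO1. It was 0.65 for GCLC, 0.58 for SRXN1, -0.72 for KEAP1 and -0.88 for GPX4. Within MYC-OFF and within MYC-ON it was 0.96 and 0.99 for GCLC, 0.97 and 0.95 for SRXN1, and -0.75 and -0.91 for KEAP1. At a like library median, GCLC, SRXN1, KEAP1 and GSR stood higher in MYC-ON. With the library median as a covariate GCLC differed by 1.15, KEAP1 by 0.95, SRXN1 by 0.93, GSR by 0.42 and GPX4 by -0.34, all called. The 10 MYC-OFF and 3 MYC-ON libraries with a median of at least 3.8 were compared without the time point. Among them GCLC differed by 1.25, SRXN1 by 0.77 and GSR by 0.39, all called, and GPX4 by -0.19, not called.

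**Figure D3:**
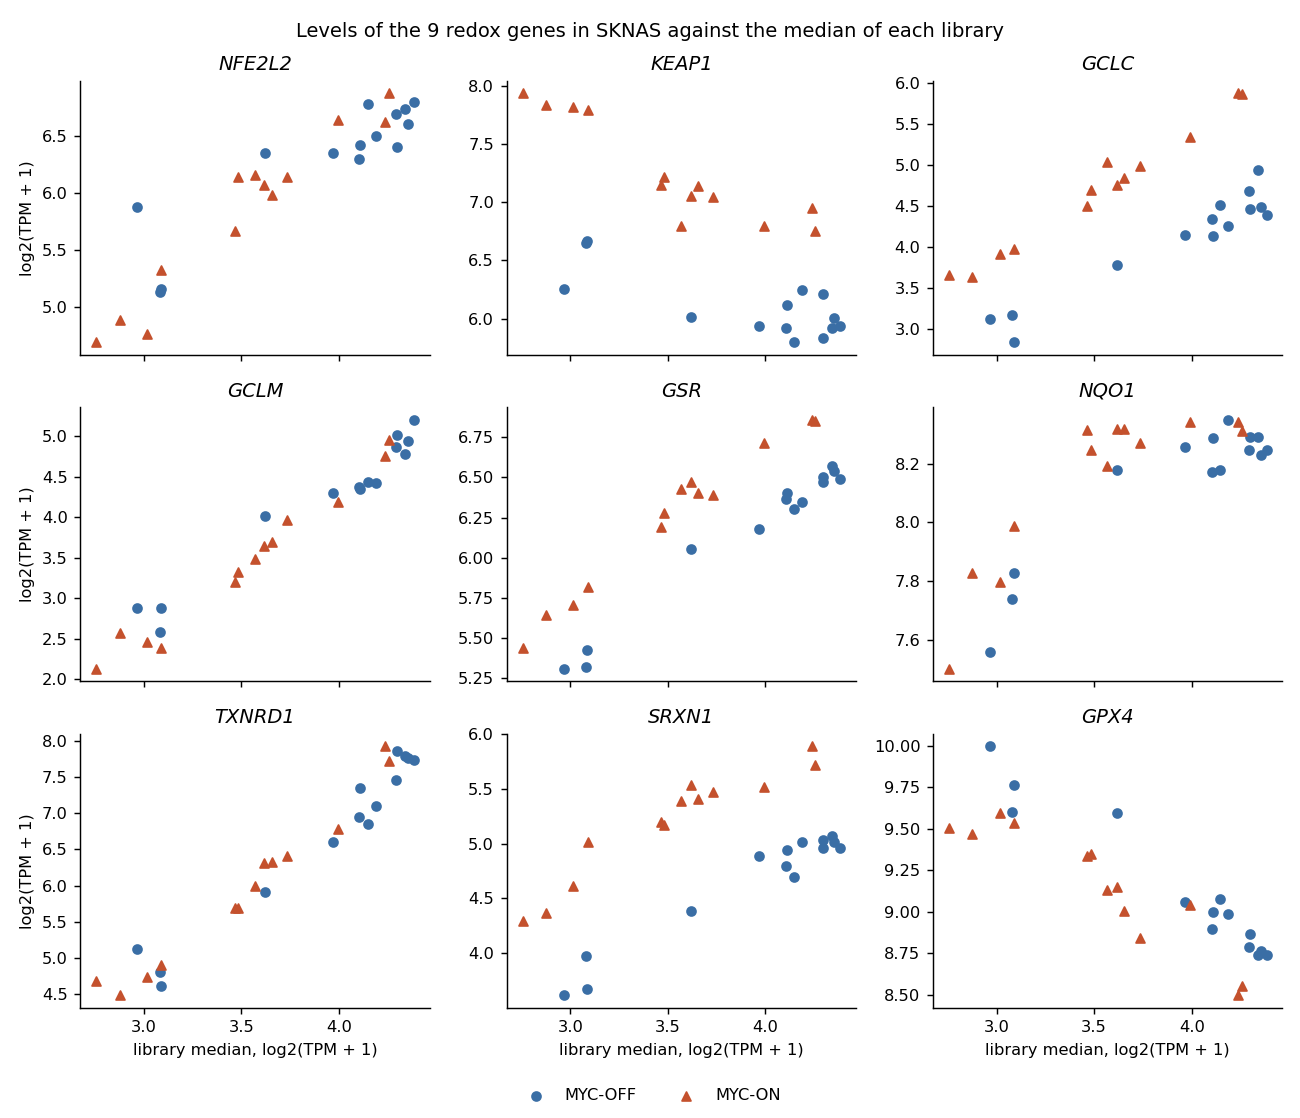
Log2(TPM + 1) of each gene in SKNAS (vertical axes) against the median log2(TPM + 1) of the library (horizontal axes), with 14 MYC-OFF libraries as blue circles and 13 MYC-ON libraries as orange triangles. KEAP1, GCLC and SRXN1 lie higher in MYC-ON at a like library median, and GCLM and TXNRD1 of both groups fall along a common line.

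The effect of MYC differed between the lines for 8 of the 9 genes, by an interaction term over all 83 libraries. Line and series cannot be told apart in this term, since SKNAS has 1 series of each condition. Relative to SHEP the SKNAS difference was higher for 2 genes, GPX4 (1.40 ± 0.112, SE, limma adjusted p = 3.78e-16) and KEAP1 (1.16 ± 0.135, SE, limma adjusted p = 1.61e-10). It was lower for 6 genes, GCLM (-1.58), TXNRD1 (-0.95), NFE2L2 (-0.62), NQO1 (-0.52), SRXN1 (-0.52) and GCLC (-0.37). Across all genes tested 51.5% differed, 13.4% upward and 38.1% downward. With the library median as a covariate GCLM differed by -0.99, NQO1 by -0.41, NFE2L2 by -0.29, SRXN1 by -0.22, TXNRD1 by -0.21 and GCLC by 0.071, the last not called. With rescaling NQO1 and SRXN1 both differed by -0.24. GSR was not called, at -0.18 ± 0.095 (SE, limma adjusted p = 0.0981).

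Ratios of 3 pairs of genes within a library, which no scaling of the library changes, were compared between paired time points. They can still move with the library median where the 2 genes do so unequally. The 6 two-sided permutation tests flipped the signs of the paired differences, and p-values were adjusted over the 6. The pairs are time points of 1 series of each condition in SKNAS and 2 in SHEP. Their p-values too rest on spread between time points more than between experiments. GCLM relative to GCLC, the modifier and catalytic subunits of one enzyme, had a median ratio of 1.13 in SKNAS MYC-OFF and 0.43 in MYC-ON. It was lower in 13 of 13 pairs, by a mean of -1.49 on the log2 scale (SD 0.47, permutation p = 0.000244, the smallest that 13 pairs allow, adjusted p = 0.00146). Over the SKNAS libraries Pearson's r with the library median was 0.98 for GCLM and 0.65 for GCLC. How far the library median enters the GCLM to GCLC difference was not tested. In SHEP the median ratio was 1.09 in MYC-OFF and 0.93 in MYC-ON, lower in 20 of 28 pairs, by -0.18 (SD 0.31, permutation adjusted p = 0.0096). Without series 1 the SHEP difference was -0.10 with a permutation p of 0.151.

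NFE2L2 relative to KEAP1, the factor and its repressor, had a median ratio of 1.26 in SKNAS MYC-OFF and 0.47 in MYC-ON, lower in 12 of 13 pairs (mean difference -1.60 on the log2 scale, SD 1.11, permutation adjusted p = 0.0022). In SHEP it was 1.69 and 1.79, and the mean difference was 0.20 (SD 0.71, permutation adjusted p = 0.145). Over the SKNAS libraries Pearson's r with the library median was 0.93 for NFE2L2 and -0.72 for KEAP1. Among the SKNAS MYC-OFF libraries the medians were lowest at CT56, CT72 and CT64 (2.97, 3.08 and 3.09). In these, in turn, NFE2L2 was at 57.9, 34.1 and 34.8 TPM and KEAP1 at 75.4, 99.3 and 100. The part of the library median in this ratio was not tested. TXNRD1 relative to GSR, the reductases of the thioredoxin and glutathione systems, had a median ratio of 6.86 in SHEP MYC-OFF and 6.68 in MYC-ON, with a mean difference of -0.05 (SD 0.17, permutation adjusted p = 0.142). In SKNAS the ratio was 1.69 in MYC-OFF and 0.74 in MYC-ON, lower in 10 of 13 pairs, by -0.82 (SD 0.96, permutation adjusted p = 0.0201). TXNRD1 differed by 0.17 and GSR by 0.42 in SKNAS once the library median was a covariate.

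In the MYC-OFF cultures, where N-MYC-ER was inactive, the lines also differed in these genes. With 1 SKNAS series of each condition, line and series cannot be told apart here either. In MYC-OFF, SKNAS was higher than SHEP for 3 of the 9 genes and lower for 3, where 31.9% of all genes were higher and 47% lower. In MYC-ON it was higher for 2 and lower for 5, where 26.9% were higher and 57.8% lower. KEAP1, TXNRD1, SRXN1 and GPX4 are given in full, a choice made after the values were seen. TXNRD1 in SKNAS minus SHEP was -2.32 ± 0.201 in MYC-OFF and -3.27 ± 0.207 in MYC-ON (SE, limma adjusted p = 3.17e-17 and 5.33e-24). With the library median as a covariate these were -1.70 and -1.88. SRXN1 differed by -1.22 and -1.74, and KEAP1 by 0.92 and 2.07, all called. GPX4 differed by 0.16 in MYC-OFF (limma adjusted p = 0.0748) and by 1.58 in MYC-ON. In MYC-ON GCLM differed by -1.84, GCLC by -0.68 and GSR by -0.30, all called. Once the library median was a covariate GCLM was at -0.75, but GCLC was at 0.17 and GSR at 0.27, both called higher. NFE2L2 at 0.48 and NQO1 at 0.20 were then called higher as well.

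TPM are per length, so genes can be set side by side. In SHEP MYC-OFF the medians ran from TXNRD1 at 524 TPM through GPX4, NQO1, GSR, NFE2L2, SRXN1, KEAP1 and GCLM to GCLC at 19.5, and the ranges of TXNRD1 and GPX4, of GSR, NFE2L2 and SRXN1 in turn, and of GCLM and GCLC overlapped. In SHEP MYC-ON, KEAP1 came last at 36.6 TPM, with a range that overlapped that of GCLM above it. In SKNAS, GPX4 came first in both groups, with a range apart from that of NQO1 next to it. In SKNAS MYC-ON all neighbours from NQO1 at 308 TPM down to GCLM at 10.2 overlapped. In SKNAS 0 of the 9 genes had a trend over time called by limma, and 0 a called difference of trends. Of all genes 0% had a called trend in MYC-OFF, and in MYC-ON 0.0216% rose and 0.072% fell. The difference of trends was called upward for 0.0288% and downward for 0.0504%. An unadjusted limma p under 0.05 was reached by 4 of the 9 genes in MYC-OFF, 0 in MYC-ON and 0 for the difference. Among all 13886 genes tested in SKNAS, 5076, 845 and 402 reached it in turn.

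In SHEP, each gene's libraries were also compared with all genes averaging at least 5 TPM, after removal of the mean of each series and condition, to name the gene that varied most like it. These are descriptions over 56 libraries of shared series, given for 8 of the 9 genes. KEAP1 was most like INTS5 (Pearson's r 0.95), NFE2L2 like RIOK1 (0.83), GSR like LDLRAD3 (0.77) and NQO1 like EIF4A1 (0.74). GCLM was most like AP3M1 (0.70), SRXN1 like FOXC1 (0.68), TXNRD1 like ZSWIM6 (0.68) and GCLC like PLS1 (0.51).

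Around the 9 genes, 111 further genes in 9 lists of the same pathways were followed. In SHEP 107 were tested, of which 42 rose and 46 fell. In SKNAS 104 were tested, of which 22 rose and 36 fell. As shares these are to be read against all genes tested, of which 33% rose and 38.9% fell in SHEP and 13.7% rose and 34.4% fell in SKNAS. After rescaling the balance in SKNAS turned, with 34 of the 104 higher and 26 lower, against 27.6% and 23.9% of all genes. It was 29 higher and 35 lower with the library median as a covariate, against 28.3% and 26.1%. SKNAS values of the listed genes are on the unscaled TPM scale unless said otherwise. Those called at 1.5-fold the same way in both lines were 6 higher and 10 lower, where 4.1% of all genes tested in both lines were so called higher and 7.3% lower.

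Of 12 genes of glutathione synthesis, import and turnover tested in SHEP 8 rose and 3 fell, and of 11 in SKNAS 7 rose and 0 fell (median differences 0.48 and 0.60). After rescaling 8 of the 11 rose and 0 fell. SLC3A2, the heavy chain of the cystine and large amino acid exchangers, rose by 1.00 in SHEP and 0.97 in SKNAS. CTH, which makes cysteine from cystathionine, rose by 0.76 and 1.17. SLC1A4, a neutral amino acid transporter, fell by 1.09 in SHEP and was not tested in SKNAS. Of the NADPH genes, MTHFD2 of mitochondrial folate metabolism rose by 1.16 and 0.77, while IDH1 fell by 0.79 and 0.84 and the mitochondrial transhydrogenase NNT fell by 0.78 and 0.91. In that list 4 of 11 rose and 3 fell in SHEP, and 1 rose and 4 fell in SKNAS, or 4 and 4 after rescaling.

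Of 14 glutathione S-transferases and export pumps tested in SHEP 4 rose and 8 fell, and of 13 in SKNAS 1 rose and 6 fell, or 2 and 3 after rescaling. GSTM4 fell by 0.67 and 0.71, and the export pump ABCC5 rose by 1.26 in SHEP and differed by 0.55 in SKNAS, not called, but was called there at 0.92 after rescaling. Of 7 peroxidases and glutaredoxins tested in SHEP 3 rose and 4 fell, and of 8 in SKNAS 2 rose and 3 fell, or 3 and 3 after rescaling. GPX3 fell by 1.55 and 1.08 and GPX8 differed by -1.38 and -0.89, both called, while the mitochondrial glutaredoxin GLRX2 rose by 0.89 and 1.36. Of 9 genes of superoxide and peroxide removal in SHEP 2 rose and 6 fell, and of 8 in SKNAS 1 rose and 5 fell, with the methionine sulfoxide reductase MSRB2 down by 1.02 and 1.44. PRXL2A, a peroxiredoxin-like protein, rose by 1.10 in SHEP and fell by 1.24 in SKNAS.

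Of 16 other NRF2 targets tested in SHEP 5 rose and 7 fell, and of 16 in SKNAS 2 rose and 10 fell, or 3 and 6 after rescaling. The ferritin light chain FTL rose by 0.86 and 0.70 and OSGIN1 by 2.08 and 0.42, whereas the epoxide hydrolase EPHX1 fell by 1.17 and 1.46 and ABHD4 by 1.23 and 1.20. Among 13 regulators of NRF2, 5 rose and 5 fell in SHEP, and 1 rose and 3 fell in SKNAS, or 4 and 2 after rescaling. NFE2L1, the related factor NRF1, fell by 0.74 and 1.47, and CUL3, which works with KEAP1, rose by 0.18 and 0.28. The phosphatase PGAM5, a KEAP1 partner, rose by 0.75 in SHEP and differed by 0.43 in SKNAS, not called, but was called there at 0.81 after rescaling.

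Of 13 thioredoxins, their reductases, peroxiredoxins and sestrins, 7 rose and 4 fell in SHEP, and 5 rose and 2 fell in SKNAS, or 7 and 1 after rescaling. The mitochondrial reductase TXNRD2 fell by 0.15 in SHEP and rose by 1.55 in SKNAS. PRDX5 fell by 0.87 in SHEP and differed by -0.063 in SKNAS, not called, where it was 0.31 after rescaling and, with the library median as a covariate, -0.39 and called. Of 12 genes of ferroptosis and selenoprotein synthesis, 4 rose and 6 fell in SHEP, and of 11 in SKNAS 2 rose and 3 fell. The transferrin receptor TFRC rose by 0.83 and 0.73, and LPCAT3, which loads polyunsaturated chains into phospholipids, fell by 0.68 and 1.06. With the library median as a covariate the LPCAT3 difference in SKNAS was -0.11.

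**Figure D4:**
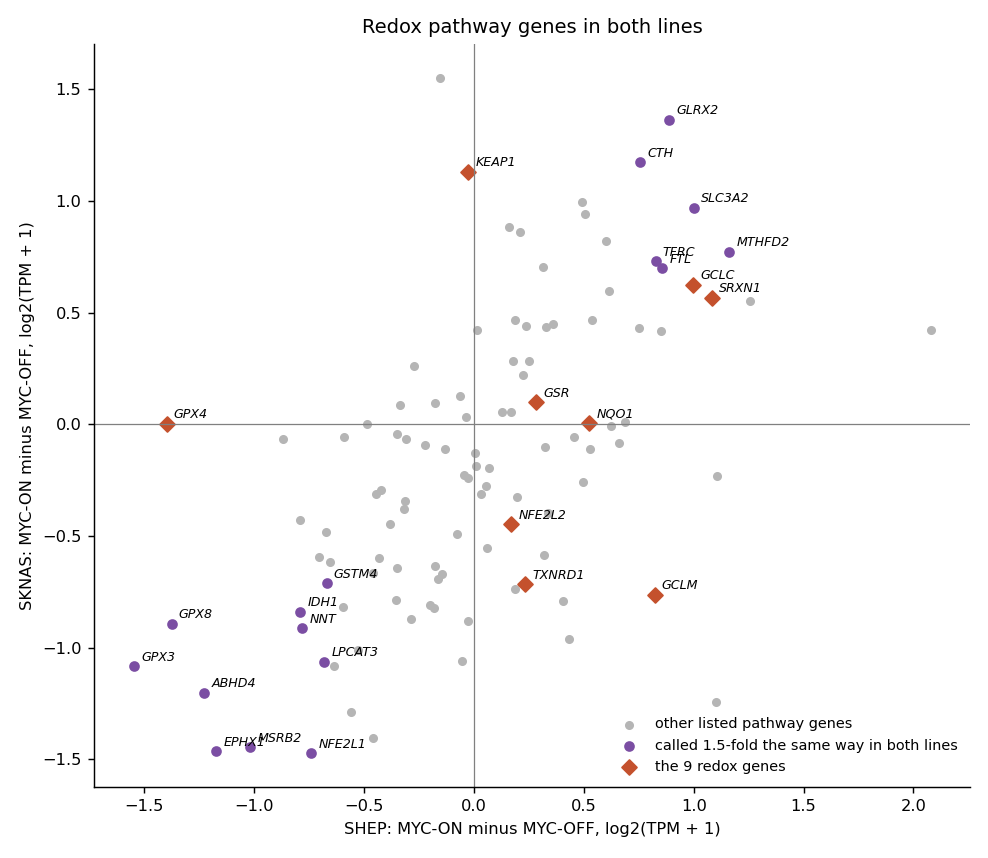
MYC-ON minus MYC-OFF difference on the log2(TPM + 1) scale in SHEP (horizontal axis) and SKNAS (vertical axis) for the 9 genes (orange diamonds) and the listed pathway genes tested in both lines (grey), with those called 1.5-fold the same way in both lines in purple. GCLC and SRXN1 lie beside SLC3A2, MTHFD2, FTL and TFRC at the upper right. GPX4 lies leftmost of the 9 genes, with no difference called in SKNAS in the fit shown.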

How the data were processed

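Polyadenylated RNA of 83 libraries was sequenced in paired ends. Transcripts (Gencode, GRCh38) were quantified by the authors in Salmon 1.3.0 and brought to gene level with Tximport, and the deposited values are TPM, which keep no depth. The study's count model was therefore replaced by limma 3.58.1 (R 4.3.3) on log2(TPM + 1), per line, for genes with a mean of at least 1 TPM. Level fits used time point as a factor, except those of the high-median SKNAS libraries and of series means. Trends and 24 h rhythms were fitted per group with SHEP series as a term. SHEP series number is the replicate and SKNAS has 1 series. Calls needed a Benjamini-Hochberg p no larger than 0.05, and for levels also a difference of 0.15 (0.66 for 1.5-fold). Fold changes on this scale understate low genes. Ratios were tested in scipy 1.17.1 with up to 100000 sign flips. GC content came from Gencode transcripts on the same build, for 99.8% of tested genes. From the lists, the genes named were those called 1.5-fold the same way in both lines and the largest called change per direction, list and line, of which the text gives the main ones. The 9 genes, the lists and the alternatives were chosen with earlier results of these data known. Alternatives were rescaling by median-of-ratios factors, the library median, GC slope or both as covariates (the GC settings chosen after seeing the data), another pseudocount, no filter, limma options, series as a block or as means, and parts of the libraries. The fits were tested on simulated data, drawn independently for each gene and library. These data held no shared shift of a library and no link between time points of a series. Some items are not reported here.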

Additional observations from a re-analysis of the deposited data

Results flagged for a closer look

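The effect of MYC differed between SKNAS and SHEP, by the interaction term, for GPX4 (1.40), KEAP1 (1.16), GCLM (-1.58), TXNRD1 (-0.95), NFE2L2 (-0.62), NQO1 (-0.52), SRXN1 (-0.52) and GCLC (-0.37), each on the log2 scale. GPX4, KEAP1, GCLM, NFE2L2, NQO1 and SRXN1 kept direction and call in all 8 alternatives. Their size shrank in some, to -0.27 for NFE2L2 with the GC slope, -0.24 for NQO1 with rescaling and -0.22 for SRXN1 with the library median. TXNRD1 lost its call without SHEP series 1 (-0.89), and GCLC kept its call in 1 of 8. The library medians that differ between the SKNAS groups move with these values. With 1 SKNAS series, line and series cannot be told apart. The trend over time differed between MYC-ON and MYC-OFF in SHEP for KEAP1 (-0.59 per 24 h) and NFE2L2 (0.19 per 24 h). The first was called in each series alone and the second in series 2 alone, the series whose GC slope shifted.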

How the results depend on the processing

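Among alternative counts of called genes 142 stayed within 1.5 times and 30 moved. For single genes 332 alternatives kept direction and call, 29 lost the call, 12 gained one and 27 reversed. The cause was not tested in any case.

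In SHEP, from CT52 on 2 genes were lower. KEAP1 reversed to 0.020 with rescaling, 0.078 with the library median as covariate, 0.033 with series means, 0.31 up to CT48, 0.13 with the GC slope and 0.35 with median and GC slope, the last and that up to CT48 called, and ran from -0.15 to 0.10 without 1 series. NFE2L2 reversed to -0.016 with median and GC slope. In SKNAS, 5 genes were higher with rescaling (GSR and NQO1 added) and 1 from CT52. The number lower was 0 without a filter, with the high-median libraries, from CT52 and with the GC slope, and 3 up to CT48. NFE2L2 reversed to 0.15 in the high-median libraries, and up to CT48 GSR reversed to -0.082 and NQO1 to -0.028. TXNRD1 reversed to 0.17 with the median, 0.13 in the high-median libraries, 0.074 from CT52 and 0.16 with median and GC slope. GPX4 reversed to -0.34 with the median, -0.19 in the high-median libraries, -0.35 from CT52, -0.086 with the GC slope and -0.34 with median and GC slope. Of the differences between lines in the MYC effect, GCLC reversed to 0.071 with the median, and GSR to 0.098 with rescaling and 0.099 with the median.

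Between lines in MYC-OFF, 5 genes were lower with the GC slope, and GPX4 reversed to -0.051 with the median. In MYC-ON, 5 were higher with rescaling and 6 with the median, which left 3 lower. For trends in SHEP MYC-OFF, 2 rose with rescaling, with the median and with median and GC slope, and without 1 series 0 rose and 0 to 1 fell, with KEAP1 from -0.053 to 0.061. In SHEP MYC-ON, 3 rose with rescaling, 3 with the median and 2 with median and GC slope. Without 1 series 0 to 1 rose and 1 to 2 fell, NFE2L2 ran from -0.013 to 0.32, and GPX4 reversed to 0.014 with rescaling. For the difference of trends, 3 were higher with rescaling, 3 with the median, 0 with the GC slope and 2 with median and GC slope, and 2 were lower with the median and with median and GC slope. Without series 2 the number higher was 2. The SHEP difference in GCLM to GCLC ran from -0.26 to -0.10 without 1 series, and that in NFE2L2 to KEAP1 from -0.049 to 0.45.

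With the SHEP series as a replicate block, 7 genes were higher and 1 lower, as without it, and no call among the 9 genes changed. Series differences in MYC-OFF and MYC-ON correlated at 0.489 across 14362 genes, but with 2 numbers the series share only a number. The depth of each library is not in the values, so counting error is not given.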
